A study of Homo sapiens with 16 samples.

Results

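The genes examined were the 4 members of the MITF and TFE family, MITF, TFEB, TFE3 and TFEC, out of 20037 protein-coding genes on chromosomes 1 to 22, X and Y. Each gene was taken as its GRCh38 gene body with 20 kb on either side, and every peak of 14 deposited lists that overlapped this window was kept. MITF held 167 such peaks, TFEB 3, TFE3 4 and TFEC 5. The lists come from CUT&RUN, an assay in which antibody-tethered nuclease cuts chromatin next to the bound protein or mark and the freed DNA is sequenced. The cells were WM164, an established human melanoma line, overexpressing either GFP, the control protein (GFP cells), or the transcription factor MAFG (MAFG cells). In each line anti-MITF and anti-MAFG had 3 libraries each and H3K4me3, a histone mark of promoters, had 1 library. Growth conditions were the same for all. The IgG sample of each line was not analysed here. The sources used here do not say how overexpression was achieved, whether the lines are clones, or whether libraries of a group came from separate cultures, so p-values measure only the spread between these libraries, which may be technical.

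MITF, TFEB, TFE3 and TFEC are basic helix-loop-helix leucine zipper proteins that bind E-box sequences as homodimers or as dimers with one another. MITF is the lineage regulator of melanocytes, and its gene has several alternative promoters, of which the M promoter is the one used by pigment cells. TFEB and TFE3 are broadly expressed and control lysosome and autophagy genes under mTORC1 signalling, whereas TFEC is expressed mainly in myeloid cells. MAFG is a small MAF protein that has no activation domain of its own and binds antioxidant and MAF response elements, alone or with CNC proteins such as NRF2.

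RefSeq promoter sequences of GRCh38.p14, each 300 bases long from 250 before to 50 after a start, were matched for all 4 genes and gave 9 starts: 3 of MITF, 3 of TFEB, 1 of TFE3 and 2 of TFEC. The MITF promoters and those of TFEB and TFE3 that the peaks below refer to are printed 5′ to 3′ on the coding strand, with capitals marking the motif matches found. The most upstream MITF start is on the plus strand, with its promoter at chr3:69739214-69739513.
MITF start 1: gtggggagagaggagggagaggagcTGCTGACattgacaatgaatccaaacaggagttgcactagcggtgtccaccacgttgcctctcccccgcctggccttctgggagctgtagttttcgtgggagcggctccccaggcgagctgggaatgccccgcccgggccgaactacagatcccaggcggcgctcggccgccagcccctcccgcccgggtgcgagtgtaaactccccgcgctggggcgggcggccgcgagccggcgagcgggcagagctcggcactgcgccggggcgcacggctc
The second MITF start lies 24.3 kb into the gene, at chr3:69763561-69763860.
MITF start 2: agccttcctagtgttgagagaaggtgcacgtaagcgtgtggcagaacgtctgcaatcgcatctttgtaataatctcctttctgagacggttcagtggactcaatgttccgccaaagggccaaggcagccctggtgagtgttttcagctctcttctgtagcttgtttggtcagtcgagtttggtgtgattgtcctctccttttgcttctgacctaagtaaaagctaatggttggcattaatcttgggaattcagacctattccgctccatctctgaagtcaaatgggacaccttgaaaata
The most downstream MITF start, the melanocyte M promoter, lies 197 kb into the gene at chr3:69936342-69936641.
MITF start 3: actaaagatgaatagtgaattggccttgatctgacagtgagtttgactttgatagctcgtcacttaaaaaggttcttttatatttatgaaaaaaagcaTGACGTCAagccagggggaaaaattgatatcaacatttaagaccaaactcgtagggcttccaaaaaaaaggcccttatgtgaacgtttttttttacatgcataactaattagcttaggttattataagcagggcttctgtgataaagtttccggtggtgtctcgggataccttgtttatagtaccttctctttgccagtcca
On the minus strand, the second TFEB promoter covers chr6:41735011-41735310 and is the only promoter outside MITF that a peak of either factor overlapped.
TFEB start 2: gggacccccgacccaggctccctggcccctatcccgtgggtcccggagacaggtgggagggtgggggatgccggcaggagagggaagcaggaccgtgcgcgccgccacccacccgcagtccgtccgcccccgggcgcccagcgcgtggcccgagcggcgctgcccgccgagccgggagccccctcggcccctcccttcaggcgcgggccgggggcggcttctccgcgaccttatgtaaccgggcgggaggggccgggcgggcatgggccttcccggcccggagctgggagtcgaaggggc
The TFE3 promoter, also on the minus strand, covers chrX:49043308-49043607.
TFE3 start 1: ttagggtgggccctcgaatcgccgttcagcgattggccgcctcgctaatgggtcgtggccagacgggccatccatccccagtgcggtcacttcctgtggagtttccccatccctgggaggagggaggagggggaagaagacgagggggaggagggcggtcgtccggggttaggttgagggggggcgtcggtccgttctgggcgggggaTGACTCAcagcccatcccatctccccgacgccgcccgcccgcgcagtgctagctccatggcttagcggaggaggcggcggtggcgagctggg

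Motifs were searched on both strands of these promoters: E-boxes CACGTG and CATGTG, the TGCTGAC core of MAF response elements, the AP-1-type element TGANTCA, whose letters can overlap those of TGCTGAC, and the cAMP response element TGACGTCA. TGCTGAC was found 225 bases before the first MITF start, TGACGTCA 152 bases before the M start and TGACTCA, a form of TGANTCA, 42 bases before the TFE3 start. These matches do not overlap another motif searched. Neither E-box was present in any of the 9 promoters. Among 34943 RefSeq promoters of the same length, 7.23% held CACGTG, 11.1% CATGTG, 4.18% TGCTGAC, 7.72% TGANTCA and 1.84% TGACGTCA. The cAMP response element of the M promoter is the known target of CREB1 downstream of melanocortin signalling.

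The lists differed in length between the lines. Libraries of GFP cells held 19828 to 20117 anti-MITF or 14879 to 26221 anti-MAFG peaks, and libraries of MAFG cells held 2116 to 2495 or 1836 to 2818. The H3K4me3 lists held 13579 peaks (GFP cells) and 11580 peaks (MAFG cells). The lists hold no reads, but the whole number of fragments at each summit could be recovered from the deposited fold and p-value. The genome-wide average pileup recovered in the same way was 0.389 to 0.760 fragments in the 6 factor libraries of GFP cells and 0.389 to 0.551 in those of MAFG cells, ranges that overlap. In peak calling the pileups of the 7 MAFG-cell libraries had been scaled by 0.350 to 0.637, and those of the 7 GFP-cell libraries by 0.969 to 1, so cell line and scaling cannot be told apart in any count of peaks below. The melanocyte genes TYR, MLANA, PMEL, DCT and SOX10 all held an H3K4me3 peak in both lines (5 of 5).

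Peaks were called at MITF in every library of both antibodies, and there were fewer of them in MAFG cells. Its anti-MITF libraries had 18, 21 and 18 peaks in GFP cells, against 8, 5 and 7 in MAFG cells, so the lines did not overlap. The means were 19.0 ± 1.73 and 6.67 ± 1.53 peaks (SD, n = 3 each), a difference of -12.3 (two-sided exact permutation test p = 0.1, the smallest that 3 against 3 allows, and Benjamini-Hochberg adjusted p = 0.266 over all genes). A window in which every GFP-cell library held more anti-MITF peaks than every MAFG-cell library was found for 37.6% of protein-coding genes, and the opposite for 0.00499%, so the separation at MITF is shared by a large part of the genome. For anti-MAFG, MITF had 23, 25 and 17 peaks in GFP cells, against 7, 7 and 6 in MAFG cells. Again the lines did not overlap, with means of 21.7 ± 4.16 and 6.67 ± 0.577 (SD, n = 3 each) and a difference of -15 (exact permutation p = 0.1, adjusted p = 0.366 over all genes). The same separation for anti-MAFG was found for 27.2% of genes, and the opposite for 0.135%. The changes with the 2 antibodies differed by 2.67 peaks (exact permutation p = 0.77 over 400 assignments within antibody).

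The difference at MITF was smaller than that of the lists. GFP-cell windows held 2.85 times as many anti-MITF peaks as MAFG-cell windows, against 8.45 times for the whole lists, and 3.25 times as many anti-MAFG peaks, against 9.92 times. MITF therefore took 0.0895% to 0.104% of an anti-MITF list in GFP cells and 0.236% to 0.321% in MAFG cells. Of an anti-MAFG list it took 0.0877% to 0.114% and 0.213% to 0.381%. When every factor library was limited to its 1836 peaks of highest fold, MITF held 3, 4 and 3 anti-MITF peaks in GFP cells, against 4, 3 and 3 in MAFG cells, a difference of 0. The anti-MAFG counts were then 6, 7 and 7 against 7, 6 and 1 (difference -2, exact permutation p = 0.7).

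**Figure D1:**
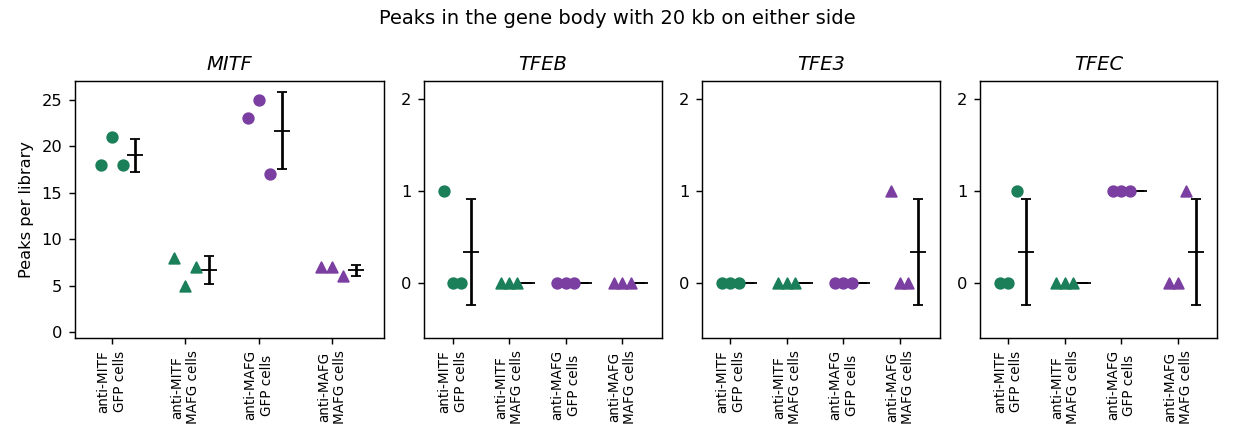
Peaks per library (vertical axis, counts) in the gene body with 20 kb on either side, for MITF, TFEB, TFE3 and TFEC, by antibody and line. Circles are GFP-cell libraries, triangles MAFG-cell libraries, and bars the mean ± SD (n = 3). MITF libraries lie between 17 and 25 in GFP cells and between 5 and 8 in MAFG cells, whereas no factor library holds at the other genes more than 1 peak.

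By number of peaks MITF ranked among the highest of all genes in every factor library. Its rank among the 20037 genes was 2 to 7 for anti-MITF and 5 to 14 for anti-MAFG in GFP cells, and 1 to 4 and 2 to 7 in MAFG cells. A long gene can hold more peaks, and MITF spans 229 kb. Per base of window its rank was 355 to 605 for anti-MITF and 51 to 118 for anti-MAFG in GFP cells, and 123 to 610 and 63 to 228 in MAFG cells. The 3 genes whose peak numbers over the 14 libraries were most like those of MITF were MAGI1, PDE4B and IGF1R, with summed absolute differences of 26, 33 and 38 peaks. MAGI1 lies in the same stretch of chromosome 3 (described below).

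The MITF locus was marked by H3K4me3 at the first start and at the M start, and not at the second start. At the first start the GFP-cell peak had a fold enrichment of 35.9 (the authors' ratio of treatment to background at the summit) and a width of 2966 bases, and the MAFG-cell peak a fold of 17.7 and a width of 2721. At the M start the folds were 30.3 and 16.3 and the widths 4559 and 3325. All 4 peaks have their summit downstream of the start, by 483 bases at the first start in both lines and by 1277 and 1234 bases at the M start. The summit at the first start held 199 recovered fragments in GFP cells and 300 in MAFG cells, which is 351 and 432 times the average of the library, so this value does not have the order of the folds. Another H3K4me3 peak, called in GFP cells only, lay 205 kb into the gene at chr3:69944598-69945672, with a fold of 6.29. With 1 H3K4me3 library per line these differences have no replicate check.

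Peaks of both factors overlapped the first promoter in GFP cells, and anti-MAFG peaks did so in 2 of 3 libraries of MAFG cells. Anti-MAFG peaks of 13.6-fold, 11.8-fold and 9.64-fold overlapped the 300 bases of the first promoter in the 3 GFP-cell libraries. Their summits were not all at the promoter: that of library 1, in a peak 3903 bases wide, lay 1.44 kb into the gene, and those of libraries 2 and 3 at -0.423 kb. In MAFG cells libraries 1 and 2 had anti-MAFG peaks there, of 5.43-fold and 6.14-fold, with summits at -0.315 and -0.306 kb. Library 3 had a peak further downstream alone, with its summit 1.95 kb into the gene. Anti-MITF peaks of 9.42-fold, 4.71-fold and 7.32-fold covered the same promoter in GFP cells. No anti-MITF library of MAFG cells had a peak over it, or anywhere in the merged site around it at chr3:69738316-69742273. The MAF element core TGCTGAC is in this promoter (MITF start 1 above), but peaks are wider than the motif and do not place either factor on it.

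At the M promoter, peaks of both factors overlapped the 300 bases in every GFP-cell library and in no MAFG-cell library. Anti-MITF peaks there had folds of 5.45, 3.37 and 6.67 in GFP cells, and anti-MAFG peaks folds of 6.12, 5.78 and 4.86. MAFG-cell libraries 1 and 3 did hold an anti-MITF peak in the merged site around the promoter (chr3:69935597-69940770), of 4.13-fold and 4.83-fold. Their summits lay 198.3 and 198.6 kb into the gene, downstream of the promoter itself. The peak of GFP-cell library 1 had its summit at 198.4 kb as well and overlapped the promoter with its width of 4996 bases, so for that library the contrast is one of peak width. In GFP-cell libraries 2 and 3 the summits of the overlapping anti-MITF peaks lay at 196.6 and 197.2 kb. The second start, 24.3 kb into the gene, had no peak of either factor and no H3K4me3 in any library.

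**Figure D2:**
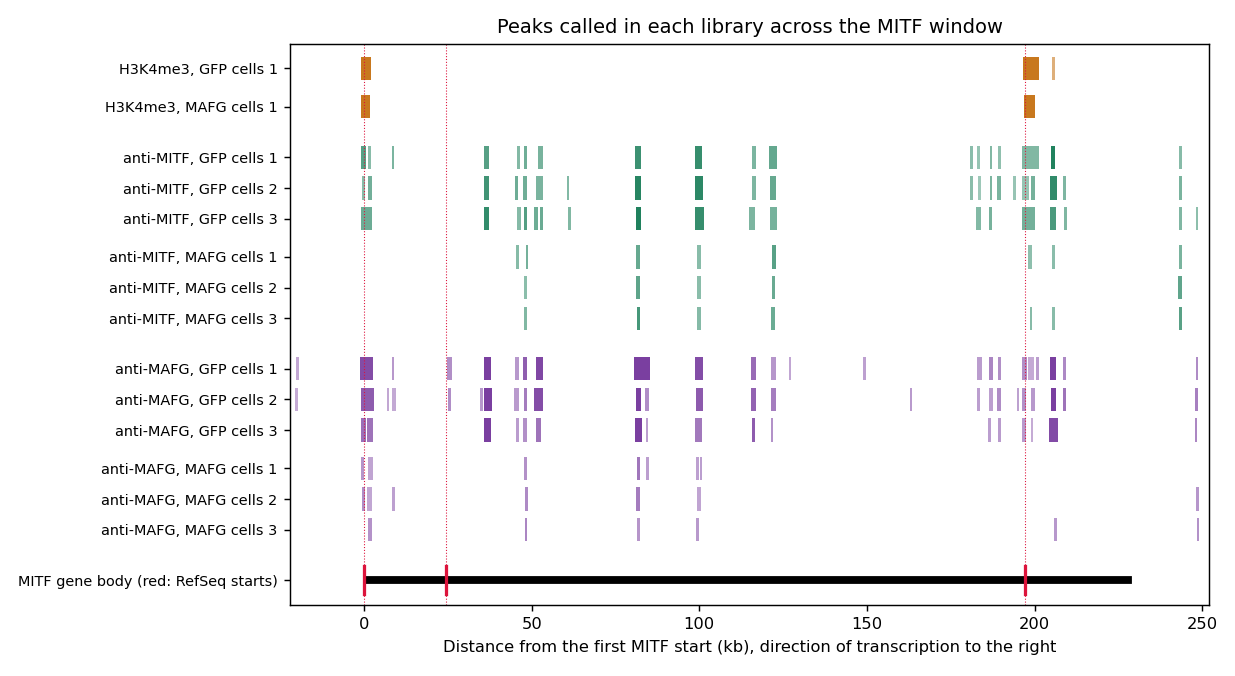
Peaks called in each of the 14 libraries across the MITF window, against distance from the first start in kb, with the direction of transcription to the right. Each row is 1 library, boxes are peaks (darker for a higher fold), the black bar is the gene body and red marks are the 3 RefSeq starts. H3K4me3 sits at the first start and at 197 kb, and the factor rows of MAFG cells hold 5 to 8 peaks against 17 to 25 in those of GFP cells.

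The remaining peaks were spread along the gene. When peaks of the 12 factor libraries were merged where they overlapped or touched, the MITF window held 29 sites, 7 of them called in 1 library. No site was called in MAFG cells alone. The site at the upstream edge of the window (chr3:69718932-69719889) extends beyond it, and 2 of its 4 libraries have their peak outside the window. In GFP cells 12 sites were called in all 3 libraries of both antibodies, and in MAFG cells 3 were. The shares of these patterns over all sites were not computed, and the GFP-cell lists are the longer. The annotation of exons and introns was not used here, so sites are placed by their distance from the first start.

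Inside the gene 3 sites were called in all 12 libraries, a pattern held by 0.233% of the 44204 sites of the genome. They lie at 47.5 to 48.7 kb (chr3:69786919-69788199), 80.6 to 85.2 kb (chr3:69820112-69824633) and 98.6 to 101 kb (chr3:69838041-69840872), between the second start and the M start. None overlaps an H3K4me3 peak in either line. With peaks limited to a −log10 q of at least 5, an alternative added after the data were seen, 1 site was called in all 12 libraries. The site at 80.6 to 85.2 kb had the highest anti-MITF fold of the locus in 2 of 3 libraries of each line, 13.9 and 14.6 in GFP-cell libraries 2 and 3 and 8.73 and 10.9 in MAFG-cell libraries 2 and 3. It was also among the strongest anti-MAFG peaks of the genome in GFP cells, with folds of 17.8, 20.2 and 18.2, in the top 1.18%, 0.192% and 0.141% of the lists.

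Another 4 sites were called in all 6 GFP-cell libraries and in no MAFG-cell library. They lie at 35.6 to 38.3 kb (chr3:69775106-69777760), 50.8 to 53.5 kb (chr3:69790272-69792936), 115 to 117 kb (chr3:69854337-69856456) and 186 to 188 kb (chr3:69925632-69927186). The share of this pattern over all sites was not computed. Per antibody, regions called in 3 of 3 GFP-cell and 0 of 3 MAFG-cell libraries are common. They make up 26.5% of all anti-MITF and 25% of all anti-MAFG regions. The most upstream of the 4 held the strongest peak of any factor at the locus, an anti-MAFG peak of 23.1-fold in GFP-cell library 1. Its folds in libraries 2 and 3 were 19.3 and 15.3, which placed it in the top 0.206% to 0.417% of the lists, and its anti-MITF folds were 9.40, 11.5 and 12.8. At the site at 186 to 188 kb the folds were lower, 5.30 to 6.34 for anti-MITF and 4.24 to 7.13 for anti-MAFG. A site at 204 to 207 kb (chr3:69943837-69946502), downstream of the M start and under the GFP-cell H3K4me3 peak named above, was strong for both factors in GFP cells. There its anti-MITF folds were 14.5, 12.9 and 10.5 and its anti-MAFG folds 20.02, 16.6 and 13.7. In MAFG cells it was called with anti-MITF in libraries 1 and 3 (4.50-fold and 4.71-fold) and with anti-MAFG in library 3 (5.12-fold).

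A site beyond the gene was called in anti-MITF lists alone. At 243 to 244 kb (chr3:69982338-69983509), past the 3′ end of MITF, a peak was called in all 6 anti-MITF libraries and in none of the 6 anti-MAFG libraries, a pattern held by 0.353% of all sites. The anti-MITF folds were 4.82, 6.08 and 5.48 in GFP cells, against 6.12, 8.50 and 9.16 in MAFG cells. The summits held 16, 20 and 20 fragments in GFP cells, against 17, 28 and 24 in MAFG cells. The recovered local background was 2.45 to 2.83 in the GFP-cell libraries and 0.580 to 0.606 in the MAFG-cell libraries. Background values are in scaled units, whereas the fragments are unscaled. The scale was 1 in the GFP-cell and 0.452 to 0.561 in the MAFG-cell anti-MITF libraries, so the backgrounds are not directly comparable between lines. The part of the background in the higher MAFG-cell folds was not tested. With peaks limited to a −log10 q of at least 5, no site had this pattern. The region at 121 to 123 kb (chr3:69860324-69862638) was called in all 6 anti-MITF libraries and in the 3 anti-MAFG libraries of GFP cells, but in no anti-MAFG library of MAFG cells.

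Counted per antibody, the 4 genes held 23 merged anti-MITF regions, 21 of them at MITF. Of the 23, 6 were called in 3 of 3 GFP-cell and 0 of 3 MAFG-cell libraries, near the share over all anti-MITF regions (26.5%), and none had the opposite pattern (0.0101% of all regions). With equal numbers of peaks per library the counts were 1 and 2, the opposite order. All 6 are at MITF. A further 5, also all at MITF, were called in all 6 libraries, against 3.84% of all anti-MITF regions, and 7 were called in at least 2 of 3 libraries of both lines (6.55% of all). For anti-MAFG there were 30 regions, 27 of them at MITF. Of the 30, 10 were called in GFP cells alone by the same rule (25% of all regions), 9 at MITF and 1 at TFEC, and none in MAFG cells alone (0.348%). At MITF, 4 were called in all 6 libraries (1.79% of all regions) and 5 in at least 2 of 3 libraries of both lines (3.87%).

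Anti-MITF and anti-MAFG shared most of their MITF sites in GFP cells. A consensus region was one called in at least 2 of 3 libraries of a group. In GFP cells 15 of the 18 anti-MITF consensus regions at these genes, all at MITF, overlapped an anti-MAFG consensus region (83.3%, against 59.1% of all anti-MITF consensus regions). In MAFG cells 3 of 7 did (42.9%, against 14.4%). Seen from the anti-MAFG lists the shares were 16 of 21 (76.2%, against 54.1%) in GFP cells and 3 of 5 (60%, against 16.4%) in MAFG cells. Most of these regions lay outside H3K4me3 peaks. In GFP cells 3 of 18 anti-MITF regions overlapped H3K4me3 (16.7%, against 42.7% of all), and in MAFG cells 1 of 7 did (14.3%, against 35.1%). For anti-MAFG the numbers were 4 of 21 (19.0%, against 26.7%) and 1 of 5 (20%, against 13.2%). Regions of 1 gene are not independent, so these shares carry no test.

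At the 9 MITF regions called in all 6 libraries of an antibody, the mean fold was lower in MAFG cells at 7, and the mean of the summit fragments relative to the library average (log2) at 3. The summit fragments were divided by the genome-wide average pileup of the library, a measure that does not use the local background and that was added after the data were seen. At 98.6 to 101 kb the anti-MITF folds were 12.5, 13.4 and 12.5 in GFP cells, against 4.76, 4.58 and 5.04 in MAFG cells. The summits of the same peaks stood at 159, 120 and 137 times the average in GFP cells, against 161, 162 and 177 times in MAFG cells. The MAFG-cell values were thus the higher, without overlap, by 0.27 ± 0.13 on the log2 scale (± SE, n = 3 each, exact permutation p = 0.1, adjusted p = 0.533 over 1146 regions), and by 0.17 without GFP-cell library 2. The recovered background at these peaks was 3.79 to 4.04 in GFP cells and 8 in each MAFG-cell library. These values are in scaled units (scale 1 in GFP-cell and 0.452 to 0.561 in MAFG-cell anti-MITF libraries) and are not directly comparable between lines. The part of the background in the lower folds was not tested. At 80.8 to 82.7 kb the anti-MITF values were 77.2, 83.7 and 92.3 against 69.5, 78.0 and 98.3, which overlap. The other anti-MITF regions of this kind, at 47.5 to 48.7 kb, 121 to 123 kb and 243 to 244 kb, also overlapped between the lines, with log2 differences of 0.34, -0.31 and 0.13. The second was -0.20 without GFP-cell library 1, and the last ranged from 0.0037 to 0.34 on leaving out 1 library. Over all 1146 anti-MITF regions called in 6 of 6 libraries, the GFP-cell values lay above all MAFG-cell values in 4.19% and below them in 14.6%, and the median log2 difference was 0.09. These regions were selected for being called in both lines, so they say nothing of the regions that were not.

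The anti-MAFG region around the first MITF start, at -1.15 to 2.81 kb, holds more than 1 summit, and the highest of each library were not at the same place. They stood at 165, 136 and 125 times the library average in GFP cells, against 202, 166 and 306 times in MAFG cells. The MAFG-cell summits lay 1.95 to 1.99 kb into the gene, those of GFP-cell libraries 1 and 3 at 1.44 and 1.45 kb and that of GFP-cell library 2 at -0.423 kb. For these highest summits the lines did not overlap, and the log2 difference was 0.62 ± 0.29 (± SE, n = 3 each, exact permutation p = 0.1, adjusted p = 0.141 over 612 regions). Without MAFG-cell library 3, the highest, the log2 difference was 0.38. At the promoter itself the order was the opposite: the summits at -0.315 and -0.306 kb in MAFG-cell libraries 1 and 2 stood at 87.4 and 105.6 times the average and library 3 had none, against 136 and 114 times at -0.423 kb in GFP-cell libraries 2 and 3, and library 1 had no separate summit there. The region at 98.7 to 101 kb was also higher in MAFG cells without overlap, at 119, 120 and 147 against 115, 107 and 105 times the average, a log2 difference of 0.23 that was -0.12 for the fragments themselves and 0.13 without MAFG-cell library 3. The one at 80.6 to 85.2 kb was lower without overlap, at 79.7, 88.8 and 74.6 against 98.7, 121 and 116 times (log2 difference -0.46 ± 0.11, exact permutation p = 0.1, adjusted p = 0.141). In these regions too the summits compared were not at 1 place: they lay between 99.3 and 99.6 kb in the former and between 81.5 and 82.1 kb in the latter. The region at 47.5 to 48.7 kb overlapped between the lines, at 66.1, 60.01 and 72.0 in MAFG cells against 64.5, 47.9 and 36.4 in GFP cells. Over all 612 anti-MAFG regions called in 6 of 6 libraries the MAFG-cell values lay above all GFP-cell values in 69.4% and below them in 1.31%, with a median log2 difference of 0.90, so the region at 80.6 to 85.2 kb had the less frequent direction.

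**Figure D3:**
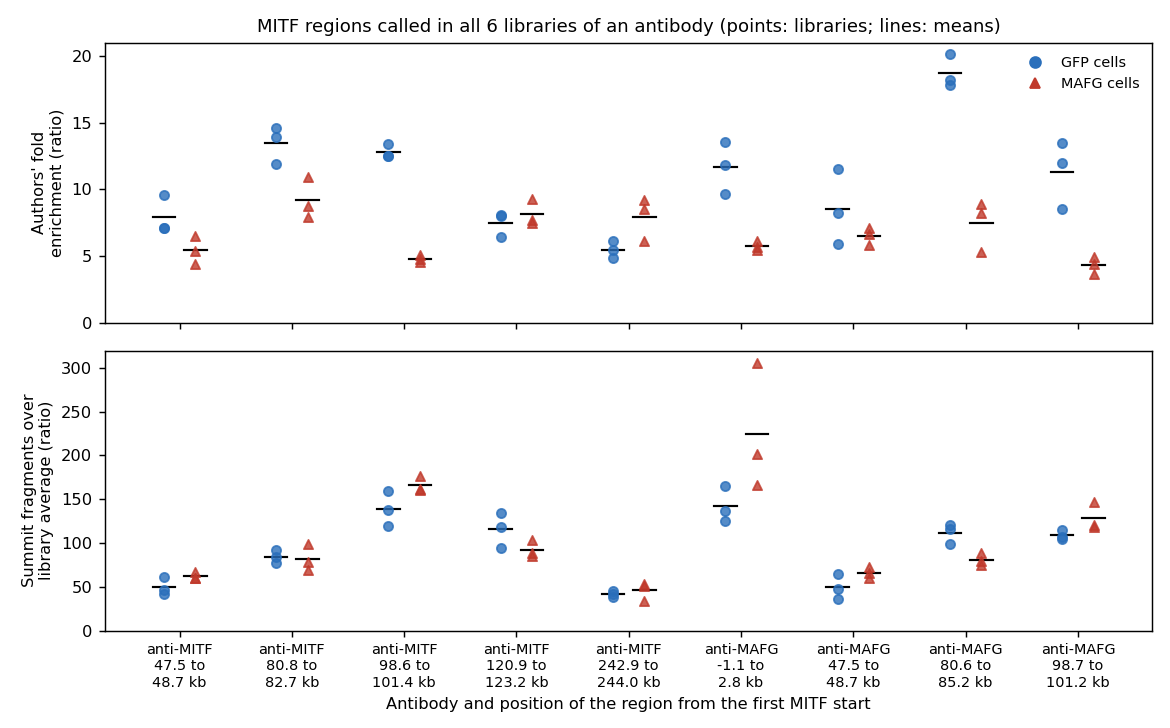
The 9 MITF regions called in all 6 libraries of an antibody, by antibody and distance from the first start (horizontal axis). The upper panel gives the authors' fold enrichment and the lower panel the summit fragments divided by the library average (both linear ratios), with points for libraries and lines for means (n = 3). Folds at 98.6 to 101 kb for anti-MITF are 12.5 to 13.4 in GFP cells and 4.58 to 5.04 in MAFG cells, whereas the lower panel has 120 to 159 against 161 to 177.

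MITF lies in a stretch of chromosome 3 with a high local background. The stretch from 60 to 75 Mb was chosen after the data were seen and holds 38 protein-coding genes. The recovered background of its factor peaks is an inferred value, and whether it comes from a control is not given. Its median was 3.08 to 6.46 times that of the rest of the genome in the 12 factor libraries. At the MITF peaks it was 2.65 to 6.98 times. For H3K4me3 the ratios were 3.19 and 4 in the stretch and 4.5 in both lines at MITF. Peaks were also denser there. In the GFP-cell anti-MITF libraries the MITF window held 66.9 to 78.1 peaks per Mb, the stretch 15.2 to 15.6 and the rest of the genome 6.50 to 6.60. MITF was denser than the stretch, and the stretch denser than the rest, in 12 of 12 factor libraries. Some neighbours held as many peaks or more, as MITF ranked 1 to 4 of the 38 genes by number of peaks and 1 to 4 by density. MAGI1 was the top gene or tied for it in the GFP-cell anti-MAFG libraries, and PRICKLE2 in those of MAFG cells. H3K4me3 peaks were not denser in the stretch than in the rest, with 2.44 per Mb against 4.49 in GFP cells and 1.97 against 3.83 in MAFG cells. The part of the high local background in the number of peaks at MITF was not tested.

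**Figure D4:**
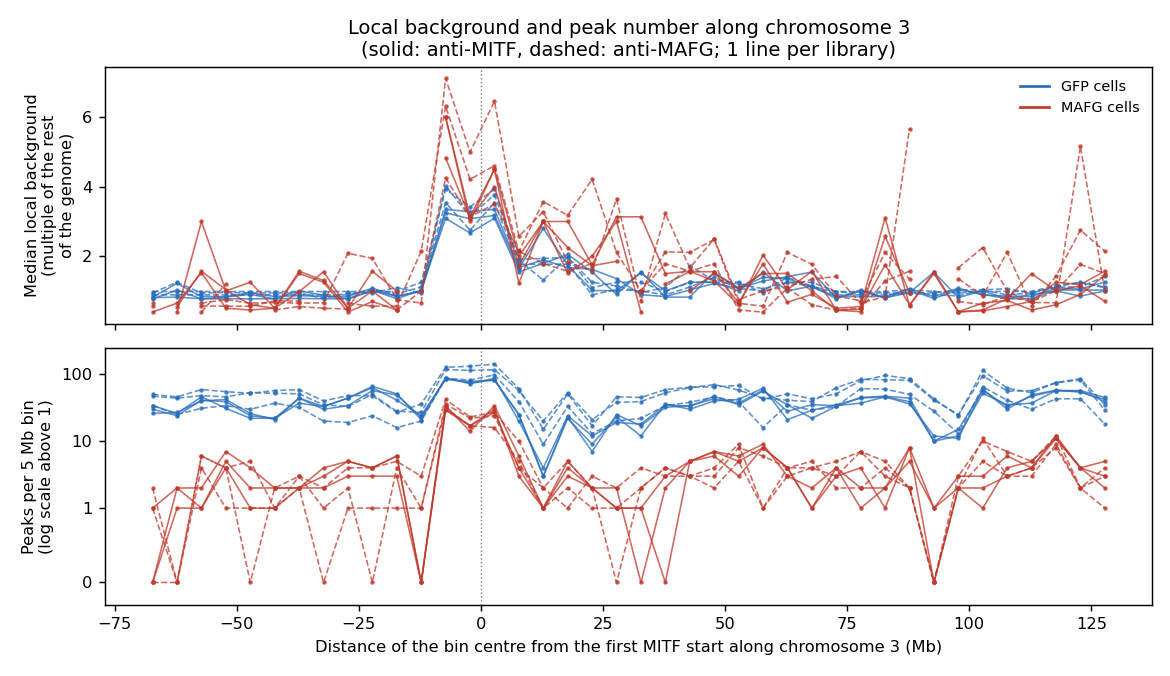
Chromosome 3 in bins of 5 Mb, by distance of the bin centre from the first MITF start in Mb. The upper panel gives the median recovered background of the peaks of a bin as a multiple of the rest of the genome, and the lower panel the number of peaks on a scale that is logarithmic above 1, with 1 line per factor library. From 60 to 75 Mb, the stretch that holds MITF, the median background was 3.08 to 6.46 times that of the rest of the genome.

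TFEB, the regulator of lysosome genes, carried H3K4me3 in both lines and almost no peak of either factor. Its 3 starts fall within 1 H3K4me3 peak, of 35.1-fold in GFP cells and 15.2-fold in MAFG cells, with 88 and 84 fragments at the summit. An H3K4me3 peak was present in the window of 69.2% of protein-coding genes in GFP cells and of 65% in MAFG cells. The only factor peak was from anti-MITF in GFP-cell library 1, at chr6:41734682-41735292 over the second start. Its fold was 3.98, it held 7 fragments at its summit, and 94.8% of its list ranked at or above it. No anti-MAFG library of either line had a peak. The anti-MITF difference between the lines was -0.333 peaks (exact permutation p = 1).

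TFE3 also had an H3K4me3 peak at its start and no anti-MITF peak in any library. The H3K4me3 folds at the start were 43.4 in GFP cells, the highest of the 4 genes, and 15.3 in MAFG cells. The summits held 67 and 68 fragments, 118 and 98.0 times the library average. In GFP cells the first MITF start stood at 351 times the average, so this value does not have the order of the folds. The recovered background there was 4.57, against 0.567 at TFE3. The part of the background in the order of the folds was not tested. A further H3K4me3 peak of 4.35-fold was called in MAFG cells 3.02 kb into the gene, at rank 11272 of 11580 in its list. It overlaps the end of the single, wider GFP-cell peak (chrX:49040557-49044304, 3748 bases), so it does not lie wholly outside GFP-cell H3K4me3. Anti-MAFG had a peak in MAFG-cell library 1 alone, at chrX:49039759-49040470, which overlaps that further H3K4me3 peak. It had a fold of 5.58 and 21 fragments, and the difference between the lines was 0.333 peaks (exact permutation p = 1). No peak of either factor overlapped the promoter with the TGACTCA match (TFE3 start 1 above).

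TFEC had no H3K4me3 peak in either line, and a single site that was called repeatedly. This site, at chr7:116138134-116139532, lies 20.4 to 21.8 kb into the gene and was called with anti-MAFG in the 3 GFP-cell libraries, with folds of 11.2, 8.84 and 4.71. The summits held 19, 14 and 9 fragments. Anti-MITF was called at the same site in GFP-cell library 3 (4.47-fold, 6 fragments), and no MAFG-cell library had it. MAFG-cell anti-MAFG library 3 had a TFEC peak elsewhere, upstream of the gene at chr7:116166004-116166343, with a fold of 5.99 and 12 fragments. The difference in anti-MAFG peaks was -0.667 (exact permutation p = 0.4, adjusted p = 0.903 over all genes). At 6 to 21 fragments the single-library peaks of TFEB, TFE3 and TFEC rest on few fragments, and no peak in another library cannot be told apart from one under the calling threshold.

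Set side by side, the number of peaks per library separated MITF from the other 3 genes and did not order those among themselves. The windows differ in length, at 269 kb for MITF, 265 kb for TFEC, 92.2 kb for TFEB and 54.6 kb for TFE3. The numbers and shares here are not adjusted for length. An anti-MITF peak in at least 2 of 3 GFP-cell libraries was found at 1 of the 4 genes, MITF, against 56.2% of protein-coding genes, and in at least 2 of 3 MAFG-cell libraries also at MITF alone, against 10.5%. For anti-MAFG the genes were MITF and TFEC in GFP cells, against 46.3% of genes, and MITF in MAFG cells, against 6.47%. H3K4me3 marked 3 of the 4 genes in both lines, near the share over all protein-coding genes (69.2% in GFP cells and 65% in MAFG cells). For TFEB, TFE3 and TFEC no most alike genes were named, because 96, 32 and 11 genes were tied at the smallest difference.

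Genes that act on these proteins were followed as 3 lists, 31 genes in all, and with either antibody fewer of them were called in MAFG cells. Anti-MITF was called in at least 2 of 3 libraries at 27 of the 31 in GFP cells (56.2% of all protein-coding genes) and at 9 in MAFG cells (10.5%). Anti-MAFG was called at 23 (46.3%) and 4 (6.47%). The GFP-cell libraries held more anti-MITF peaks without overlap at 21 genes (37.6% of all genes) and more anti-MAFG peaks at 19 (27.2%), and the opposite was found at none. The median change was -2 anti-MITF and -1.67 anti-MAFG peaks per gene, beside -0.667 and -0.333 over all protein-coding genes. H3K4me3 was called at 30 of the 31 in GFP cells (69.2% of all protein-coding genes) and 29 in MAFG cells (65%). KIT, a receptor tyrosine kinase of melanocytes, lacked it in both.

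Of the 9 transcription regulators of MITF, all were called with both antibodies in GFP cells, and 2 with each antibody in MAFG cells. The shares over all genes were 56.2% and 10.5% for anti-MITF (GFP cells, then MAFG cells), and 46.3% and 6.47% for anti-MAFG. SOX10, which activates the M promoter, had 5, 4 and 4 anti-MITF peaks in GFP cells, against 2, 0 and 1 in MAFG cells. MC1R, the melanocortin receptor upstream of CREB1, had 4, 4 and 4 against 3, 3 and 2. With anti-MAFG the genes called in MAFG cells were ZEB2, a repressor required in the melanocyte lineage, with 9, 9 and 7 peaks in GFP cells, against 1, 1 and 2 in MAFG cells, and TCF7L2, a Wnt effector, with 9, 8 and 6 against 1, 0 and 1. For the antibody whose counts are given, the libraries of the lines did not overlap at these genes. GFP cells were higher without overlap at 37.6% of all genes for anti-MITF and 27.2% for anti-MAFG. With anti-MAFG the lines overlapped at MC1R, at 1, 1 and 0 peaks in GFP cells, against 0, 0 and 0 in MAFG cells.

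The 16 genes of nutrient signalling control TFEB and TFE3 at the lysosome. Anti-MITF was called at 14 of them in GFP cells (56.2% of all genes) and 6 in MAFG cells (10.5%). MTOR, the kinase that keeps TFEB in the cytoplasm, had 9, 8 and 8 anti-MITF peaks in GFP cells, against 2, 3 and 4 in MAFG cells. RRAGD, a Rag GTPase and known MITF family target, had 4, 4 and 3 against 1, 1 and 0, and FNIP1, the partner of FLCN, 7, 4 and 5 against 0, 1 and 1. RRAGC, another Rag GTPase, and FLCN, its activating protein, each had 1 anti-MITF peak in every library of both lines and no anti-MAFG peak in any. Anti-MAFG was called at 10 of the 16 in GFP cells (46.3%) and at 1 in MAFG cells, near the share over all genes (6.47%). That gene was LAMTOR1, which anchors the Ragulator complex to the lysosome, with 3, 3 and 2 anti-MAFG peaks against 1, 1 and 1 and 4, 4 and 4 anti-MITF peaks against 1, 1 and 1.

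Among the 6 modifiers of MITF protein, anti-MITF was called at 4 in GFP cells (56.2% of all genes) and 1 in MAFG cells (10.5%), and anti-MAFG at 4 (46.3%) and 1 (6.47%). In a list this short the anti-MITF counts are near those shares. The gene called in MAFG cells was USP13 with both antibodies. USP13, a deubiquitinase of MITF, had 1 anti-MITF peak in every library of both lines, and its anti-MAFG peaks were 3, 2 and 1 in GFP cells, against 1, 1 and 1 in MAFG cells. At USP13 the lines overlapped for both antibodies.

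**Figure D5:**
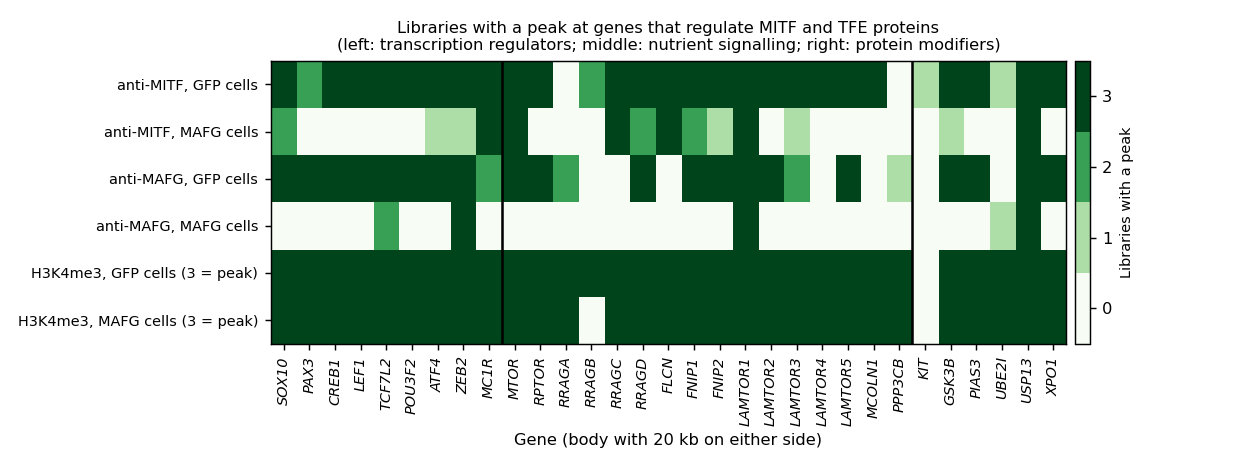
Number of libraries with a peak (colour, 0 to 3) in the window of each of the 31 genes (horizontal axis) for each antibody and line (rows); for H3K4me3, with 1 library per line, the darkest colour marks a peak. Vertical lines separate the 3 lists. The rows of MAFG cells hold 9 genes called in at least 2 libraries for anti-MITF and 4 for anti-MAFG, against 27 and 23 in GFP cells.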

How the data were processed

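CUT&RUN libraries of WM164 cells overexpressing GFP or MAFG were analysed from the authors' peak lists, 1 per library and not pooled, 14 in all. Per the submitters' processing notes, cutadapt 1.8.1, Bowtie2 2.4.1 and MACS2 2.1.1.20160309 were used with the GRCh38 (hg38) build; the control of each peak call is not given in the sources used here. The authors deposited for each peak a fold enrichment (a ratio on a linear scale), the −log10 of its p-value and q-value, and a score that was not used. Fold served to describe and order the peaks of a list.

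The genes, lists and sites were chosen with earlier results of these data known. The pathway genes named are those with a peak in at least 2 of 3 MAFG-cell libraries of either antibody, and KIT, named after its values were seen; 1 planned gene is not reported here. Peaks were assigned to windows from RefSeq (GRCh38.p14) at an overlap of at least 1 bp. Differences in peaks per library were tested by exact permutation (two-sided, 20 assignments) on all 20037 genes with Benjamini-Hochberg adjustment. Libraries with the same number did not deviate together (correlations -0.12 to 0.01), so they were not paired.

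Summit fragments k and background b were recovered from fold = (k × scale + 1) / (b + 1) and a Poisson tail for p, with 1 scale per library. This is an inferred formula. It matched 100% of peaks in the 12 factor libraries, 91.1% of the GFP-cell and 99.96% of the MAFG-cell H3K4me3 peaks, with peaks of −log10 p above 250 left out. The library average is the lowest background divided by the scale. Libraries of a group shared 33.3% to 44.9% of their peak bases, so none was present more than once. The counting was checked on simulated lists of the same length in both lines. Windows with planted peaks were recovered there as libraries that do not overlap. The simulation did not hold the difference in list length of the data. It also does not show that the permutation test can call a change, as its smallest p is 0.1. Python 3.11.15 with numpy 2.4.6, pandas 2.3.3 and scipy 1.17.1 was used.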

Additional observations from a re-analysis of the deposited data

How the results depend on the processing

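The alternatives were a −log10 q of at least 5, equal numbers of peaks, summits in place of overlap, flanks of 5 and 50 kb, covered base pairs, an overlap of 50%, the replicate block and leaving out each library. Over 33 results and 400 alternatives, 363 kept their direction (or, for counts, stayed within 1.5 times), 33 moved and 4 reversed. No exact p can go below 0.1 with these numbers of libraries. The side of the 0.05 threshold could therefore not change and says nothing of robustness. Direction at MITF held, except for anti-MITF with equal numbers of peaks, where the difference was 0. The anti-MAFG difference was then only -2, from 6, 7 and 7 peaks in GFP cells, against 7, 6 and 1 in MAFG cells. Of these, MAFG-cell library 3 alone lay below all GFP-cell libraries. With the replicate block the MITF differences stayed at -12.3 and -15 peaks, with an exact sign-flip p of 0.25. This is the smallest that 3 pairs allow, so the block could not change a call. Leaving out 1 library gave -13 to -11.3 for anti-MITF and -17.3 to -13.3 for anti-MAFG.

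The small differences at the other genes rest on single peaks. For anti-MITF they went to 0 at TFEB and TFEC with a −log10 q of at least 5 and with equal numbers, and to -0.333 at TFE3 with 50 kb flanks; for anti-MAFG to 0 at TFE3 with the q limit and to 0 at TFEC with equal numbers. Leaving out 1 library gave -0.5 to 0 for anti-MITF at TFEB and at TFEC, 0 to 0.5 for anti-MAFG at TFE3 and -1 to -0.5 at TFEC. The peak at TFEB was not called without GFP-cell library 1, that of anti-MITF at TFEC without GFP-cell library 3, and that at TFE3 without MAFG-cell library 1.

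With equal numbers, anti-MITF regions of GFP cells alone went to 1, of MAFG cells alone to 2 and of all 6 libraries to 1 (3 with the q limit), and the anti-MAFG counts to 3, 1 and 0. Anti-MITF regions overlapping anti-MAFG went to 4 in GFP and 1 in MAFG cells, and regions overlapping H3K4me3 in GFP cells to 1 for anti-MITF and 2 for anti-MAFG. The anti-MITF overlap with H3K4me3 in MAFG cells was 0 with the q limit and with equal numbers, 2 with 50 kb flanks, and 0 to 1 on leaving out a library (0 without MAFG-cell library 1 or 3). Leaving out 1 library gave 6 to 9 anti-MITF and 10 to 14 anti-MAFG regions of GFP cells alone, 5 to 7 and 4 to 5 in all libraries, and 13 to 15 co-occupied regions in GFP cells.

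For the summits over the library average, the anti-MITF region at 80.8 to 82.7 kb had log2 differences of 0.097 without division by the average and of -0.19 to 0.058 on leaving out 1 library (0.013 without GFP-cell library 3, 0.058 without MAFG-cell library 1), and the anti-MAFG region at 98.7 to 101 kb had -0.12 without division. Only fragment numbers at called summits could be recovered, so occupancy below the calling threshold was not measured.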
